A study of Homo sapiens with 12 samples.

Results

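Cyclic nucleotide phosphodiesterases are the enzymes that break down cAMP and cGMP, and 10 of their genes were compared between a fast and a parental population of the MDA-MB-231 line, established from a human breast cancer and labelled triple negative. The genes were PDE2A, PDE3A, PDE4A, PDE4B, PDE4D, PDE5A, PDE7A, PDE8A, PDE9A and PDE10A, found by their symbols among the 60234 genes of the count table. They were chosen by their fast against parental fold changes, in each batch, in these same libraries. Their fold changes between the populations are therefore given as a description, without p-values. Fast cells had been captured by trajectory, and parental cells carry no treatment in the labels. The 12 libraries were 3 of fast and 3 of parental cells in each of 2 batches, and the series describes the 3 as technical replicates, so p-values measure a spread that may be technical. Libraries held between 53267145 and 75944907 counts each, so that 1 CPM (counts scaled to the library total) stood for about 53.3 counts in the shallowest library. Captured cells were compared with uncaptured ones, so the capture itself and the selected population cannot be told apart.

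The second messengers cAMP and cGMP are made by adenylyl and guanylyl cyclases, act through protein kinases A and G, the EPAC exchange factors and cyclic nucleotide-gated channels, and are ended by phosphodiesterase hydrolysis. The families differ in substrate and control. PDE4, PDE7 and PDE8 enzymes hydrolyse cAMP, PDE5 and PDE9 enzymes hydrolyse cGMP, and PDE2, PDE3 and PDE10 enzymes accept both. PDE2A is activated by cGMP binding to its GAF domains, whereas PDE3A is inhibited by cGMP, which lets cGMP raise or lower cAMP depending on which enzyme a cell holds. In migrating cells, locally confined cAMP and protein kinase A activity is known to act at the leading edge.

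The promoters of 2 members are shown, one with and one without the motif of the cAMP-responsive factor CREB. PDE2A, with a large difference between the populations, has a single listed start, and PDE4A, with almost none, has 5 listed starts, of which the one with the motif is shown. Windows run from 250 bases before to 50 after a start (RefSeq, GRCh38.p14). PDE2A lies on the minus strand at chr11:72674373-72674672 and this PDE4A start on the plus strand at chr19:10416523-10416822, both written 5′ to 3′ with capitals marking the motif core TGACG on either strand.
PDE2A: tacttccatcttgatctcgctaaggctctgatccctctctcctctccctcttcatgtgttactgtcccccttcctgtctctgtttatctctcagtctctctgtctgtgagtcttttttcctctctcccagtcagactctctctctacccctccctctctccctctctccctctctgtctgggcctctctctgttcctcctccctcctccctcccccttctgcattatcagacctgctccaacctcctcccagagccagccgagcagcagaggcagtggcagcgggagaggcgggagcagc
PDE4A: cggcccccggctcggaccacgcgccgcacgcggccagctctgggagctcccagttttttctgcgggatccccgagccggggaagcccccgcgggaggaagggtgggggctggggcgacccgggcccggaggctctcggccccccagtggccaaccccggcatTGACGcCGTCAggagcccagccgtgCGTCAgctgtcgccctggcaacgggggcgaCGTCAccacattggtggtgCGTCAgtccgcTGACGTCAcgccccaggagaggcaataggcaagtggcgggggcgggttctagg
The PDE4A window held 7 matches of TGACG or its reverse complement, among them the whole palindrome TGACGTCA once, whose strands count as 2 of the 7. The PDE2A window held none. Of all 35116 windows listed for human genes, 24.6% held TGACG and 1.85% held TGACGTCA. For the members, 29 windows of 8 genes were searched, and 3 windows held TGACG, 1 each of PDE4A, PDE4D and PDE5A. Windows for PDE7A and PDE9A were not used here. A match describes the letters only, and the gene counts do not show which start was used.

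Of the 10 members, PDE2A and PDE9A were higher in every fast library than in any parental library, and PDE4B, PDE7A and PDE8A were lower in every fast library. The ranges of PDE3A, PDE4A, PDE4D, PDE5A and PDE10A overlapped. Over the 22668 genes tested, 38.4% had populations that did not overlap, 18.8% with fast above and 19.6% with fast below, and nothing is read from the members' 5 of 10, since this contrast chose them. All 10 members passed the filter on low counts, and PDE3A passed through its counts in parental cells alone. Their median log2 fold change of fast over parental was -0.21, beside 0.01 over all genes tested. Nothing is read from that either, since this contrast chose them. In bulk RNA, a change in every cell and a change in the number of cells that express a gene cannot be told apart.

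**Figure D1:**
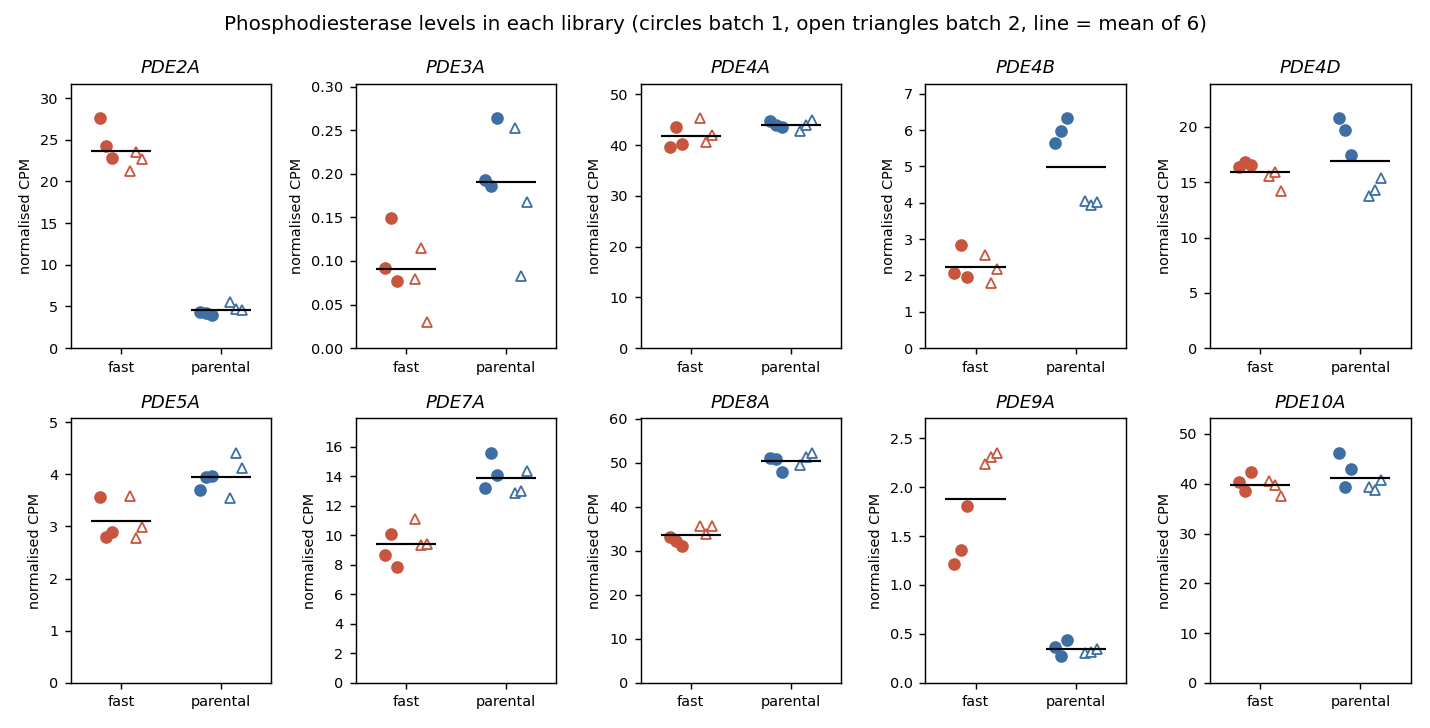
TMM-normalised CPM (vertical axes, from 0, a scale of its own for each gene) of 10 phosphodiesterase genes in 6 fast libraries (left) and 6 parental libraries (right). Circles are batch 1, open triangles batch 2 and lines the mean of 6. PDE2A and PDE9A lie wholly above the parental libraries and PDE4B, PDE7A and PDE8A wholly below them, while the other members overlap.

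Among the enzymes that accept both nucleotides, PDE2A (ENSG00000186642, chromosome 11) had the clearest difference. It stood at 27.6, 24.3 and 22.8 CPM in the fast libraries of batch 1 and at 21.3, 23.5 and 22.7 CPM in those of batch 2. The parental libraries had 4.28, 4.26 and 4.03 CPM in batch 1 and 5.5, 4.66 and 4.62 CPM in batch 2. The lowest fast library was thus far above the highest parental one. The log2 fold change was 2.38 ± 0.07 (SE, n = 6 libraries each), 2.57 ± 0.08 within batch 1 and 2.2 ± 0.08 within batch 2. That value lay at the 99.7th percentile of all genes tested, from which nothing is read, since this contrast chose the gene. The 30 neighbours of PDE2A on the chromosome had a median of -0.19. The antisense gene AP005019.1, which shares 230 exonic bases with PDE2A in GENCODE 29, had 659 counts over the fast and 100 over the parental libraries, against 9381 and 1772 for PDE2A. Strand use in counting was not given in the sources used here, so reads of this overlap cannot be assigned to either gene.

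PDE10A (ENSG00000112541, chromosome 6), which is best known from striatal neurons, was abundant and nearly level. It ranged from 37.5 to 42.3 CPM over the fast and from 38.8 to 46.2 CPM over the parental libraries, with a log2 fold change of -0.05 ± 0.04 (SE). Its populations overlapped within each batch as well. PDE3A (ENSG00000172572, chromosome 12), known from heart muscle and platelets, was barely detected. It had 6, 10 and 4 counts in the fast libraries of batch 1 and 6, 8 and 2 in those of batch 2, against 11, 12 and 17 and against 15, 6 and 12 counts in the parental libraries. The log2 fold change of -1.05 ± 0.43 (SE) rests on these few counts, and the populations overlapped in batch 2.

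The cGMP-specific PDE9A (ENSG00000160191, chromosome 21), an enzyme of very high affinity for cGMP, had a fold change close to that of PDE2A, at a much lower level. Fast libraries had 1.21, 1.36 and 1.81 CPM in batch 1 and 2.24, 2.31 and 2.35 CPM in batch 2. Parental libraries had 0.368, 0.279 and 0.434 CPM in batch 1 and 0.304, 0.318 and 0.35 CPM in batch 2. All fast libraries lay above the parental ones, and within fast cells the libraries of batch 2 lay above those of batch 1. The log2 fold change was 2.43 ± 0.18 (SE) over both batches, 2.0 ± 0.25 in batch 1 and 2.82 ± 0.24 in batch 2, and its neighbours had a median of 0.03. PDE5A (ENSG00000138735, chromosome 4), the sildenafil-sensitive enzyme of smooth muscle, went slightly the other way. It ranged from 2.78 to 3.59 CPM in fast and from 3.54 to 4.41 CPM in parental libraries, a log2 fold change of -0.35 ± 0.1 (SE). The ranges touched only at their ends. PDE5A shares 542 exonic bases with the pseudogene AC093752.1 on the other strand, which had 1767 counts in fast and 2476 in parental cells, against 1235 and 1543 for PDE5A.

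The cAMP-specific members were level or lower in fast cells. PDE4B (ENSG00000184588, chromosome 1), which in leukocytes limits cAMP during inflammatory signalling, stood at 2.06, 2.85 and 1.97 CPM in the fast libraries of batch 1 and at 2.56, 1.78 and 2.17 CPM in those of batch 2. Parental libraries had 5.65, 5.98 and 6.33 CPM in batch 1 and 4.05, 3.94 and 4.01 CPM in batch 2. All fast libraries were below all parental ones, and the parental level itself differed between batches. The log2 fold change was -1.13 ± 0.11 (SE), -1.38 ± 0.14 in batch 1 and -0.88 ± 0.14 in batch 2. Neighbouring genes of PDE4B were lower as well, with a median of -0.38.

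PDE8A (ENSG00000073417, chromosome 15), a high-affinity cAMP enzyme that the common inhibitor IBMX does not block, ranged from 31.1 to 35.7 CPM in fast and from 47.9 to 52.2 CPM in parental libraries. Its log2 fold change was -0.59 ± 0.03 (SE), beside a neighbour median of -0.38. PDE7A (ENSG00000205268, chromosome 8), another high-affinity cAMP enzyme, ranged from 7.83 to 11.1 CPM in fast and from 12.9 to 15.6 CPM in parental libraries, a log2 fold change of -0.56 ± 0.07 (SE) beside a neighbour median of 0.1. Neither pair of ranges overlapped. PDE7A shares 116 exonic bases with MTFR1 on the other strand, which had 13939 counts in fast and 12829 in parental cells, against 3765 and 5401 for PDE7A.

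The PDE4 paralogs other than PDE4B differed little. PDE4A (ENSG00000065989, chromosome 19) averaged 41.9 ± 2.16 CPM in fast against 44.0 ± 0.793 CPM in parental cells (SD, n = 6 each), and its log2 fold change was -0.07 ± 0.04 (SE). PDE4D (ENSG00000113448, chromosome 5), whose long forms are bound by anchoring proteins, stood at 16.4, 16.8 and 16.6 CPM in the fast libraries of batch 1 and 15.6, 15.9 and 14.2 CPM in those of batch 2. Parental libraries had 20.8, 19.7 and 17.5 CPM in batch 1 and 13.8, 14.3 and 15.4 CPM in batch 2. Fast libraries were thus all below the parental ones in batch 1, while in batch 2 the ranges overlapped and 2 of the 3 fast libraries lay above every parental one, the log2 fold change being -0.22 ± 0.07 in batch 1 and 0.07 ± 0.07 (SE) in batch 2. PDE4D was the single member with opposite signs in the batches. Its neighbours on chromosome 5 had a median of 0.47.

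**Figure D2:**
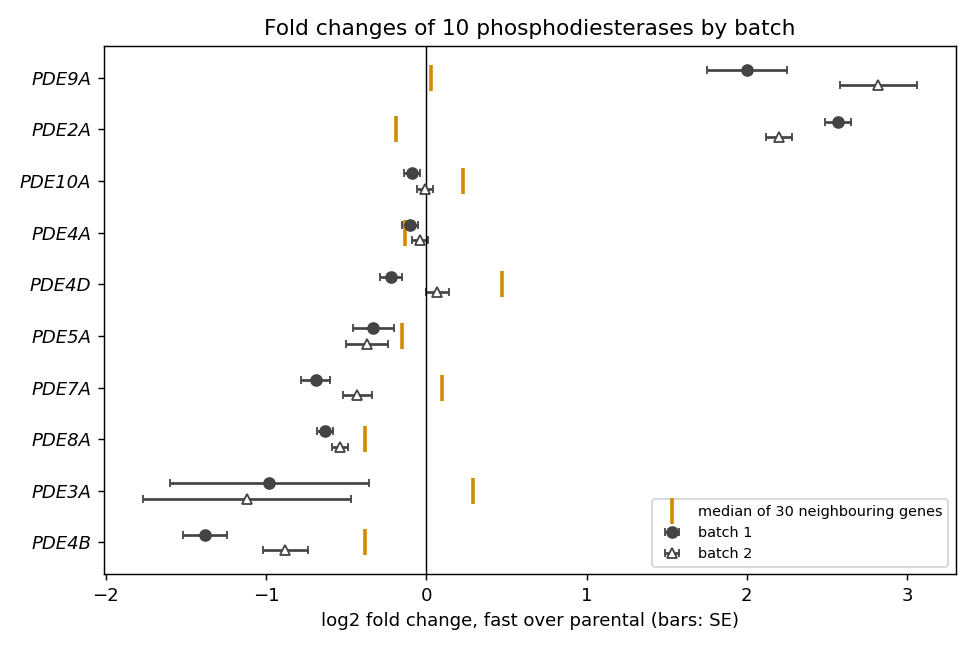
Log2 fold change of fast over parental (horizontal axis) for each of 10 phosphodiesterase genes (rows), in batch 1 (circles) and batch 2 (open triangles), with SE as bars. Orange ticks give the median fold change of 30 neighbouring genes, which is at most 0.47 from 0, whereas PDE9A and PDE2A lie at 2 or more in both batches.

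Levels of different genes were compared per length, as CPM per kb of exonic sequence in GENCODE 29. In fast cells the order was PDE4A (6.3 CPM per kb), PDE8A (4.26), PDE2A (3.3), PDE10A (1.81), PDE7A (1.27), PDE4D (0.976), PDE9A (0.357), PDE5A (0.317), PDE4B (0.258) and PDE3A (0.0108). Neighbours in this order overlapped between libraries for PDE9A and PDE5A and for PDE5A and PDE4B. In parental cells PDE4A (6.62) and PDE8A (6.39) overlapped, as did PDE10A (1.87) and PDE7A (1.87), and PDE2A (0.635) and PDE4B (0.578). They were followed by PDE5A at 0.403, PDE9A at 0.065 and PDE3A at 0.0228 CPM per kb, with PDE4D at 1.04 above PDE2A. PDE2A was thus the third of the 10 in fast cells and the sixth in parental cells. With the length of the longest transcript in place of all exons, an alternative chosen after seeing the data, PDE2A was again the third in fast cells. In parental cells it became the seventh at 1.06 CPM per kb, overlapping with PDE4B at 1.1, and PDE8A (10.8) stood above PDE4A (9.2).

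The summed level of the 10 members barely differed, at 18.8 ± 0.561 CPM per kb in fast and 19.5 ± 0.494 in parental cells (SD, n = 6 each), and the ranges of 18 to 19.7 and 18.8 to 20.1 overlapped. Its makeup did. PDE2A supplied 17.5 ± 1.73% of the sum in fast and 3.26 ± 0.443% in parental cells, and PDE8A supplied 22.6 ± 0.895% and 32.8 ± 0.969%. PDE4A had nearly the same share, 33.4 ± 1.08% in fast and 34.0 ± 0.518% in parental cells. By substrate, the cAMP-specific members summed to 13.1 ± 0.644 CPM per kb in fast and 16.5 ± 0.486 in parental cells. The members that accept both nucleotides summed to 5.12 ± 0.308 and 2.53 ± 0.116, and the cGMP-specific pair to 0.674 ± 0.0969 and 0.468 ± 0.0329 CPM per kb. These sums are of RNA and restate the differences of the members in them, without a test. They leave out the 14 other listed genes with a PDE symbol, of which 3 were called higher and 4 lower, and are not totals of the family. Among those left out, PDE1C, which accepts both nucleotides, stood at 6.64 CPM per kb in fast and 2.52 in parental cells. PDE7B went the other way at 0.6 and 1.82 CPM per kb, as did PDE3B at 0.542 and 1.13.

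**Figure D3:**
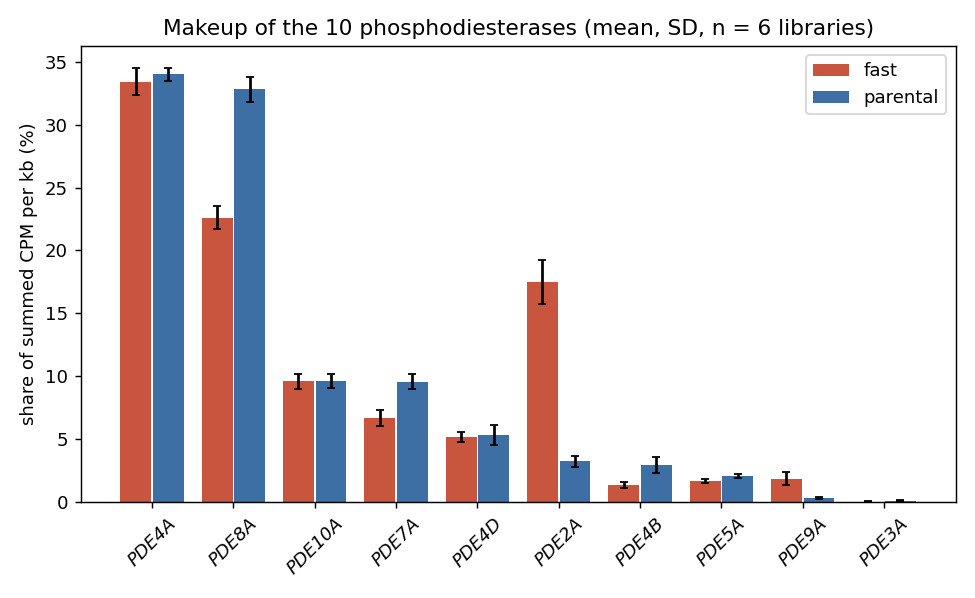
Share of each of 10 phosphodiesterase genes in their summed CPM per kb (vertical axis, percent) in fast (left bars) and parental (right bars) libraries, as the mean with SD of 6 libraries each. PDE2A takes 17.5% in fast and 3.26% in parental cells, and PDE8A takes 22.6% and 32.8%.

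The difference between batches, taken over both populations together, did not enter the choice of members and was tested. In edgeR's quasi-likelihood test, 2 of the 10 members differed at an adjusted p under 0.05 and both were lower in batch 2, against 36.2% of all genes. This is not more than the background. PDE4D averaged 14.9 CPM in batch 2 and 18.0 CPM in batch 1 (log2 fold change -0.27 ± 0.06 SE, edgeR adjusted p = 0.00027), and PDE4B 3.08 and 4.14 CPM (-0.36 ± 0.11 SE, adjusted p = 0.00846). For both genes the difference was seen in parental cells, with log2 fold changes of -0.41 ± 0.07 for PDE4D and -0.58 ± 0.13 for PDE4B, against -0.13 ± 0.07 and -0.09 ± 0.15 in fast cells. The call for PDE4B was lost when each set of 3 libraries was summed to 1 sample (adjusted p = 0.0906), and with no population term (0.59). PDE9A had a log2 fold change of 0.4 ± 0.18 (adjusted p = 0.0776), with 0.66 ± 0.2 in fast and -0.15 ± 0.3 in parental cells. It was called with genes filtered at 1 CPM on average (adjusted p = 0.0374) and without parental batch 1 replicate 3 (0.0308). The other 7 members had adjusted p-values from 0.101 to 0.966. PDE2A had the smallest difference, -0.0048 ± 0.07 (SE).

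The genes whose level over the 12 libraries followed a member most closely were sought among 11267 other genes of at least 5 CPM. For PDE9A they were SLC35F3 (Pearson r = 0.993), GPX4 (0.992) and TERF2 (0.99), which had log2 fold changes of 0.48, 0.42 and 0.48. For PDE4B they were LRRC28 (0.978), TCEAL3 (0.976) and NABP2 (0.974), with -0.61, -0.5 and -0.21. These correlations are across libraries that fall into 2 populations, so they mostly restate the population difference, and 608 genes had an r over 0.95 with PDE9A.

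The remaining genes of the pathway were taken from 11 lists by role, 122 genes in all, of which 87 could be tested. In fast cells 36 were higher and 30 lower at an edgeR adjusted p under 0.05. Of all genes 63.4% were called, 31.9% higher and 31.5% lower, and the median log2 fold change was 0.03 over the pathway genes, against 0.01 over all genes. Lists are described by counts, without a test of the list.

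Of 14 other listed genes with a PDE symbol, 8 could be tested, and 3 were higher and 4 lower in fast cells. PDE6A and PDE6D were among the lower, with ranges that overlapped, and PDE6A had only 33 counts in fast and 78 in parental cells. PDE1C, a calmodulin-dependent enzyme for both nucleotides, was at 86.3, 88.5 and 89.5 CPM in fast libraries of batch 1 and 93.7, 94.3 and 98.3 CPM in those of batch 2, against 34.2, 33.3 and 33.4 and against 34.9, 36.6 and 37.1 CPM in parental libraries. No fast library came near a parental one, and its log2 fold change was 1.39 ± 0.03 (SE, edgeR adjusted p = 8.16e-29), close to equal in both batches. At 6.64 ± 0.321 CPM per kb in fast cells it overlapped with PDE4A, the highest member, and in parental cells it stood at 2.52 ± 0.117. With the longest transcript as the length, PDE1C ran from 9.75 to 11.1 CPM per kb in fast cells, wholly above PDE4A at 8.3 to 9.47. PDE11A, which accepts both nucleotides, averaged 4.18 ± 0.654 CPM in fast cells against 2.25 ± 0.711 CPM in parental cells and was called higher (edgeR adjusted p = 3.07e-07), although the ranges overlapped. PDE7B, the paralog of PDE7A, fell by 1.59 ± 0.12 on the log2 scale (3.57 CPM in fast, 10.8 CPM in parental cells, edgeR adjusted p = 4.18e-09). PDE3B, the paralog of PDE3A, fell by 1.06 ± 0.06 (6.34 and 13.2 CPM, edgeR adjusted p = 9.4e-17), beside a neighbour median of -0.32. PDE7B shares 452 exonic bases with the antisense gene AL138828.1, which had 462 counts in fast and 1005 in parental cells. PDE8B, the paralog of PDE8A, was called higher, at 1.6 CPM in fast cells and 1.26 CPM in parental cells (0.36 ± 0.14 SE in log2, edgeR adjusted p = 0.026). The genes outside the 10 were passed over with the same contrast known, so these tests are not wholly independent of that choice.

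Among the enzymes that make the messengers, 5 of 10 adenylyl cyclases could be tested, with 2 higher and 3 lower. ADCY7 rose to 47.4 ± 1.55 CPM in fast cells, against 21.7 ± 1.56 CPM in parental cells (1.13 ± 0.04 SE in log2, edgeR adjusted p = 9.45e-23). Its neighbours had a median of 0.45. The changes of ADCY3, ADCY6 and ADCY9 were at most 0.19 either way, and ADCY3, at 104 and 111 CPM, was the most counted cyclase. Of 9 guanylyl cyclase and natriuretic receptor genes, 7 were tested, 5 being higher and 2 lower. The clearance receptor NPR3 rose to 7.09 CPM in fast cells, against 3.52 CPM in parental cells, and NPR2, the receptor cyclase for C-type natriuretic peptide, to 8.07 against 4.8 CPM. Of the nitric oxide-sensitive cyclase, the alpha chain GUCY1A2 was higher (0.88 ± 0.18 SE, log2 fold change) and the beta chain GUCY1B3 lower (-0.85 ± 0.1), both under 4 CPM.

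Upstream of the cyclases, 4 of 5 G protein alpha subunits were higher. GNAS, a stimulatory subunit, was not called, at a mean of 665 CPM in fast against 683 CPM in parental cells (edgeR adjusted p = 0.158). GNAL rose by 0.75 ± 0.08 on the log2 scale beside a neighbour median of 0.84. The inhibitory GNAI1, GNAI2 and GNAI3 were called higher by 0.23 ± 0.05, 0.09 ± 0.03 and 0.18 ± 0.03 (SE). Ranges overlapped for GNAI1 and GNAI2 but not for GNAI3, and GNAI1 had 0.32 ± 0.07 in batch 1 and 0.13 ± 0.07 in batch 2. Of 20 receptors that raise cAMP, 11 were tested, 3 being higher and 5 lower. VIPR1, a receptor for vasoactive intestinal peptide, fell to 3.16 CPM in fast cells, against 21.1 CPM in parental cells (-2.68 ± 0.09 SE, edgeR adjusted p = 3.54e-16). Its neighbours had a median of -0.48. The beta-adrenergic receptor ADRB1 was higher at 2.53 against 0.803 CPM, as was the adenosine receptor ADORA2A at 1.52 against 0.699 CPM. Their neighbour medians were 0.43 and 0.09. The serotonin receptor HTR7, at 35.7 CPM in fast cells, was higher by 0.84 ± 0.04 on the log2 scale, beside a neighbour median of 0.37.

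Downstream, 9 of 10 genes of protein kinase A subunits and inhibitors were tested, 4 being higher and 4 lower. The regulatory chains split. PRKAR1A was higher by 0.36 ± 0.03 (285 CPM in fast, 223 CPM in parental cells) and PRKAR1B by 0.79 ± 0.04, beside neighbour medians of 0.2 and 0.39. PRKAR2A was lower (-0.62 ± 0.03 SE, log2 fold change, beside a neighbour median of -0.41), and PRKAR2B was not called. Of the catalytic chains, PRKACA was called higher at 140 against 118 CPM, and PRKACB lower at 29 against 31.4 CPM. The ranges of PRKACB overlapped, and its log2 fold change was -0.17 ± 0.05 (SE) in batch 1 and -0.05 ± 0.05 in batch 2. The inhibitor PKIB was higher (0.81 ± 0.08) and PKIA lower (-0.52 ± 0.05). Of 17 other effectors 9 could be tested, with 2 higher and 2 lower. RAPGEF3, which encodes EPAC1, rose to 15.1 ± 1.31 CPM in fast cells, against 7.46 ± 0.519 CPM in parental cells (adjusted p = 3.78e-16). The membrane protein POPDC3 was higher by 0.66 ± 0.05, and the channel HCN3 lower (-1.01 ± 0.09, beside a neighbour median of -0.41).

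Of 16 genes of anchoring proteins, which tether protein kinase A and often a phosphodiesterase, 14 could be tested, with 5 higher and 4 lower. AKAP2 rose to 624 CPM in fast cells, against 389 CPM in parental cells, beside a neighbour median of 0.53 in log2, and AKAP6 was higher by 0.57 ± 0.17. AKAP12 was lower (-0.55 ± 0.03), as was AKAP8L (-0.4 ± 0.05). PDE4DIP, which binds PDE4D, had means of 74.5 CPM in fast cells and 77.2 CPM in parental cells and was not called over both batches (adjusted p = 0.569). It was lower in fast cells in batch 1 (-0.22 ± 0.04 SE in log2, adjusted p = 3.05e-05) and higher in batch 2 (0.13 ± 0.04, 0.01), and the batches differed (adjusted p = 0.000148). Of the exporters, ABCC4 was higher by 0.12 ± 0.03 and ABCC5 lower (-0.27 ± 0.04, beside a neighbour median of -0.4).

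Of 8 CREB family and coactivator genes, 3 were higher and 4 lower. All 3 CREB-regulated coactivators were lower, CRTC1 by the most (29.4 CPM in fast, 49.5 CPM in parental cells, with a log2 fold change of -0.75 ± 0.04 SE, adjusted p = 5.45e-18), with CRTC3 at -0.37 ± 0.04, equal to its neighbour median of -0.37, and CRTC2 at -0.26 ± 0.03, beside -0.35. The acetyltransferase EP300 was higher by 0.32 ± 0.03. Of 11 known CREB target genes, 9 could be tested, with 4 higher and 1 lower. PPARGC1A, the mitochondrial coactivator, rose to 2.68 CPM in fast cells, against 1.46 CPM in parental cells, and RGS2, which dampens G protein signals, to 6.71 against 3.74 CPM. The calls for the orphan receptors NR4A1 (-0.9 ± 0.35 SE, adjusted p = 0.0444) and NR4A2 (0.56 ± 0.2, 0.0233) went with unlike batches. NR4A1 had 0.04 in batch 1 and -2.07 in batch 2, and NR4A2 had 1.1 in batch 1 and -0.09 in batch 2, and both differences passed the test between batches, as did 5.4% of all genes. Both calls were lost on the sums of libraries (adjusted p = 0.58 and 0.165). With no batch term both were lost as well (edgeR adjusted p = 0.11 for NR4A1 and 0.106 for NR4A2). Without single libraries, NR4A1 was lost on leaving out fast batch 1 replicate 3 or any single batch 2 library (0.0511 to 0.0944). NR4A2 was lost without parental batch 1 replicate 1 or 3 (0.0583 and 0.0611).

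**Figure D4:**
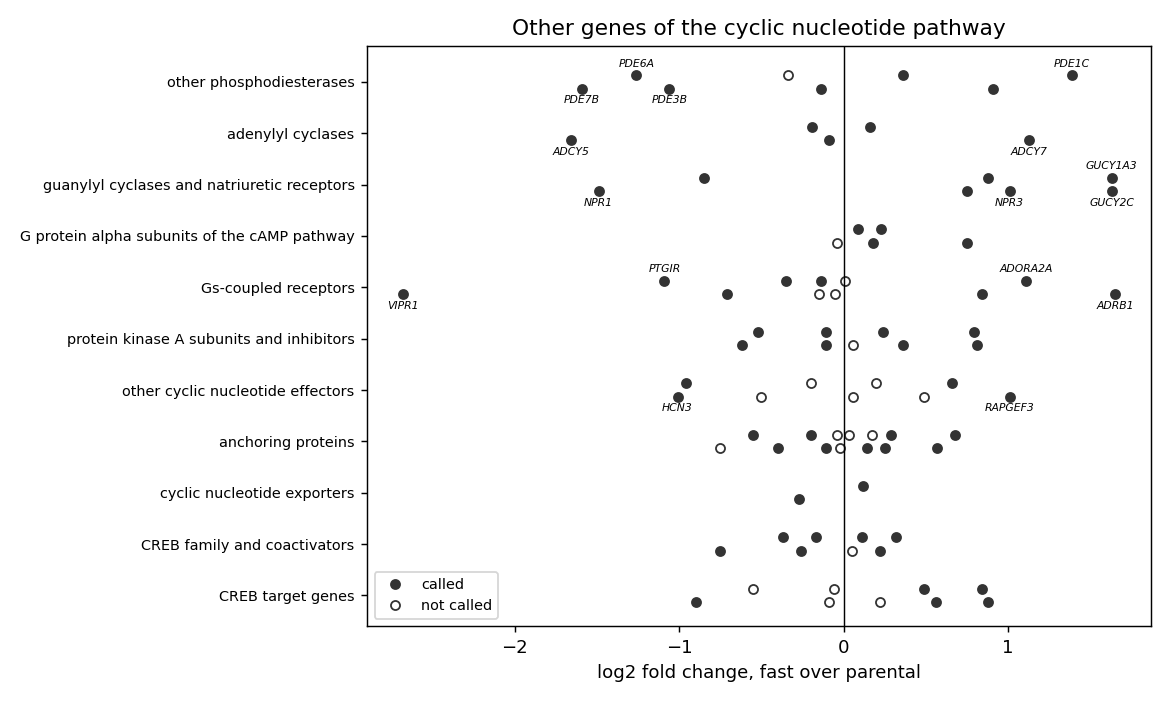
Log2 fold change of fast over parental (horizontal axis) for 87 tested genes of the cyclic nucleotide pathway other than the 10 described above, in 11 lists by role (rows). Filled points have an edgeR adjusted p under 0.05 and open points do not, with names given from 1 log2 unit. Most lists hold higher and lower genes, and VIPR1 lies farthest from 0 at -2.68.

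The libraries fitted the label of the line in VIM, with means of 6910 CPM in fast cells and 5050 CPM in parental cells, and in ESR1 at 0.139 CPM in each, while CDH1 stood at 0.021 and 0.00725 CPM. The progesterone receptor PGR, whose expression the label holds absent, had 2.05 CPM in fast against 0.477 CPM in parental cells. ERBB2, whose overexpression the label also holds absent, had 59 CPM in fast cells and 62.4 CPM in parental ones. Several members are known from platelets and smooth muscle. Of 5 platelet markers 2 passed the filter, and GP1BA was lower in fast cells (0.493 and 1.1 CPM). Their sum ran from 0.482 to 1.19 CPM in fast and from 1.02 to 1.81 CPM in parental libraries, and GP9 had 0 counts in all libraries. Of 5 smooth muscle markers 2 passed the filter, ACTA2 being higher (4.85 and 2.58 CPM) and MYH11 level at 7.76 CPM in each population. MYOCD was at 0, and the 5 summed to 12 to 13.4 CPM in fast and 9.41 to 12 CPM in parental libraries. The summed leukocyte markers reached at most 0.848 CPM in fast and 0.895 CPM in parental libraries, and the fibroblast markers 1.1 and 1.33 CPM, with DCN and LUM at 0. Of 5 endothelial markers 4 were found, KDR being higher (10.8 and 8.6 CPM) and VWF lower (0.0838 and 0.182 CPM). Their part in the results was not tested.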

How the data were processed

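RNA of 12 libraries of MDA-MB-231 cells was sequenced. The deposited values are raw counts per gene, to which the authors applied no normalization. The submitters' processing notes name Trimmomatic 0.32, STAR 2.3.0e, featureCounts 1.4.4 and the builds hg19 and GRCh37. Even counts made up 68.7% of values from 1 to 10 and 51.3% of values from 200 to 2000, and what was counted as 1 was not given in the sources used here, so counting error may be larger than the counts imply. No 2 libraries of a group matched within counting noise (dispersion index 3.41 to 8.81), and all were kept.

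The members and lists were chosen with earlier results of these data known. Counts were fitted with edgeR 4.0.16 (R 4.3.3): TMM normalization, a filter on low counts (minimum count 10, minimum total 15, by population and batch), a robust quasi-likelihood fit with population and batch, and Benjamini-Hochberg adjustment over 22668 genes, with 0.05 as the threshold. A cell-means model gave values within batches and, for genes other than the members, the test of the difference between batches. SE is the log2 fold change divided by the root of the F statistic. Levels are TMM-normalised CPM, on 6 libraries per population. Named pathway genes were up to 4 called genes per list of at least 1 CPM, by size of change, with others named after their values were seen. Gene order, lengths and overlaps came by gene ID from GENCODE 29 (GRCh38), another build than the counts, so no gene coordinates are given. Neighbour medians cover 30 genes of at least 1 CPM. They are printed for only some pathway genes, so a missing one does not stand for a median near 0. The steps were tested on simulated counts. Alternatives were DESeq2 1.42.0, its size factors, other filters, other terms, sums of libraries and leaving out each library.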

Additional observations from a re-analysis of the deposited data

Results flagged for a closer look

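The difference of the fast against parental effect between batches was tested for genes of the pathway other than the 10 members, and 14 of 87 passed at an edgeR adjusted p under 0.05, against 5.4% of all genes. Among the genes named by size of change there were 6. For PDE7B the log2 fold change of batch 2 minus that of batch 1 was 0.76 (adjusted p = 0.00064), with -1.23 in batch 2 and -1.98 in batch 1. For VIPR1 it was 0.68 (adjusted p = 0.000174), with -2.34 in batch 2 and -3.01 in batch 1. AKAP2 differed by -0.15 (adjusted p = 0.0328) and AKAP8L by -0.32 (0.000439), each with the same sign in both batches. NR4A1 differed by -2.1 (adjusted p = 1.14e-06) and NR4A2 by -1.19 (0.00134). Of the 9 CREB target genes tested, 5 differed between batches. The other 3, named after their values were seen, had opposite signs in the batches, each called within both. The log2 fold change was -0.8 in batch 2 and 1.16 in batch 1 for FOS, -0.48 and 0.32 for DUSP1, and -0.33 and 0.2 for PER1. PDE4DIP, also named after its values were seen, had 0.13 in batch 2 and -0.22 in batch 1, a difference of 0.35 (adjusted p = 0.000148).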

How the results depend on the processing

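The fold changes of fast over parental kept their sign and stayed within the spread between libraries for all 10 members under every alternative run, except that PDE3A was removed by the filter at 1 CPM. The count of members called between batches was 2, and became 1 with no population term and 1 on sums of libraries, which leave 1 residual degree of freedom, and ran from 2 to 3 on leaving out single libraries. Of the pathway genes, 34 to 36 were called higher and 26 to 29 lower on leaving out single libraries, and 9 to 15 differed between batches, with 9 without parental batch 2 replicate 3 against 14 with it. With the replicate block, 36 were higher, 28 lower and 13 differed. The replicate numbers share no stated origin and same-numbered libraries had correlations of -0.08 to 0.07, so the samples share only a number. These are the numbers of the titles, and those of the count columns differ for 3 libraries of batch 1. Of the named genes NR4A1 lost its call under the block (adjusted p = 0.146). Batch differences near 0 changed sign: PDE2A had 0.0021 with DESeq2, 0.01 with genes filtered at 1 CPM on average, 0.0044 with the replicate block, 0.01 on sums, and 0.01 to 0.06 without fast batch 1 replicate 1 or 2 or fast batch 2 replicate 1 (0.04) or 3, with a range of -0.05 to 0.06 over all such runs. PDE7A had -0.01 without fast batch 1 replicate 3 and -0.02 without fast batch 2 replicate 1, which also gave -0.01 for PDE4A and -0.02 for PDE5A, against highest values of 0.08 for PDE7A and 0.09 for PDE5A. The cause was not tested. On sums, ADCY9, ADCY3, GNAI2 and ABCC4 were no longer called (adjusted p of 0.07, 0.203, 0.0752 and 0.0715). The 3 libraries of a group limit precision, most for PDE3A.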
